A study of Mus musculus with 12 samples.

Results

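Mouse primordial germ cell-like cells (PGCLCs) after 7 days of expansion culture were compared with male germ cells taken from embryos at E12.5 (E for embryonic day). The comparison used 4 libraries of a series of 12 libraries in 6 groups, namely the 2 libraries of the group d4c7 and the 2 of E12.5 males, chosen by their labels. The other groups are PGCLCs at culture day 3 (d4c3) and day 5 (d4c5), germ cells of E9.5 embryos and female germ cells of E12.5 embryos. RNA was measured by 3′-end RNA sequencing of amplified cDNA on a SOLiD instrument, and the question was how the cultured cells differ from germ cells that developed in the embryo.

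The d4c7 cells were C57BL/6 cells carrying a Blimp1-mVenus and a Stella-ECFP reporter (BVSC). Embryonic stem cells kept with inhibitors of MEK and GSK3 plus LIF were turned into epiblast-like cells with activin A and bFGF, and then into PGCLCs with BMP4, LIF, SCF and EGF. At induction day 4 they were sorted by mVenus and plated on m220 feeder cells, a stromal line, and at culture day 7 they were sorted again by mVenus (labelled BVSC+). The E12.5 male cells came from embryos of an ICR and C57BL/6 mix labelled 1:1, carried a Stella-EGFP reporter (SG) and were sorted as SG+. Each d4c7 library was amplified from 10 ng of RNA and each embryonic library from 1 ng. Culture is thereby confounded with strain, with reporter, with the sort and with RNA input, and their parts in any difference below cannot be told apart. The labels give neither the sex of the stem cell line nor the number of embryos pooled, and they do not say whether the replicates were separate cultures or litters. The p-values therefore reflect only the spread between replicate libraries, which may be technical. That spread was pooled over the 6 groups of the series and is not that of the 4 compared libraries alone.

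Germ cells arise in the early mouse embryo under BMP signals, switch on a network that includes Blimp1 (Prdm1), Prdm14 and Tfap2c, regain pluripotency genes and migrate to the gonad, erasing DNA methylation as they go. After they enter the gonad they switch on a second set of genes, such as Dazl, Ddx4 and the piRNA pathway, many of which have promoters that are methylated in other cells. Female germ cells then enter meiosis in response to retinoic acid and BMP, while male germ cells are held back from meiosis, pass through a phase of Nodal signalling and later become prospermatogonia.

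Values are RPM, reads of a gene scaled to a common total of reads in genes. The steps between low values put the d4c7 libraries at 2552984 and 5817990 reads in genes and the E12.5 male libraries at 3207582 and 3331072. A value of 0 allows up to 3 reads, or 1.18 and 0.517 RPM in the d4c7 libraries and 0.938 and 0.903 RPM in the male libraries. Replicate logs differed by a root mean square of 0.564 in d4c7, the widest of the 6 groups, and of 0.404 in E12.5 males. Library d4c7 replicate 2 stood apart in depth and in its ERCC spike-in rows, none of which held a value. The ERCC rows summed to 64.8 RPM in d4c7 replicate 1 and to 14411 and 16494 RPM in the male libraries. Results are therefore also given without single libraries where that changes them.

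Both groups carried RNA of germ cell markers. Dppa3, Ddx4 and Dazl were called lower in d4c7, and Prdm1 and Tfap2c higher, with their values given below. Pou5f1, a pluripotency factor kept by early germ cells, was at 475 and 521 RPM in d4c7 replicates 1 and 2 and at 534 and 500.1 RPM in E12.5 male replicates 1 and 2, the order used throughout. Kit, the receptor for stem cell factor, was at 168 and 252 RPM against 226 and 224 RPM. Neither was called (log2 differences of -0.05 ± 0.12 and -0.13 ± 0.17), and a difference that misses the threshold is not shown to be absent. Amh, a Sertoli cell marker, was at 0 in all 4 libraries, but it was 1 of only 3 among 31 gonadal somatic genes that were.

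Of 10856 tested genes, 3968 were called between d4c7 and E12.5 males (36.6%), at an adjusted p under 0.05 in limma with the method of Benjamini and Hochberg. In d4c7, 2058 were higher (19%) and 1910 lower (17.6%), and the median log2 difference of all tested genes was -0.01. At least 2-fold differences were found in 1049 of the higher and 844 of the lower genes, and at least 4-fold in 267 and 170. In each called gene both libraries of one group lay above both of the other, an arrangement that 33.4% of tested genes showed with d4c7 above and 33.3% with d4c7 below. The fit pools the spread of all 12 libraries, and a fit to the 4 compared libraries alone called 1249 genes higher and 1048 lower. Higher and lower genes were 1679 and 1253 without d4c7 replicate 1, and 2035 and 2296 without d4c7 replicate 2. Without E12.5 male replicate 1 they were 1474 and 1192, and without replicate 2 they were 1482 and 1070.

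The largest increases in d4c7 joined genes of different functions. Dnmt3l, a catalytically inactive partner of the de novo DNA methyltransferases, was at 178 and 41.0 RPM in d4c7 and at 0 in both male libraries, a mean level at least 117-fold higher on the floor of 3 reads in the shallower male library, or at least 43.7-fold for d4c7 replicate 2 alone. Calcoco2, an autophagy receptor gene, was at 251 and 187 RPM against 1.56 and 3.61 RPM (log2 difference 5.98 ± 0.25, adjusted p = 4.90e-09). Fabp3, which encodes a fatty acid-binding protein, was at 186 and 207 RPM against 2.81 and 3.31 RPM (5.60 ± 0.24, adjusted p = 4.90e-09). Of these 3 genes Dnmt3l alone had d4c7 replicates more than 4-fold apart. Among genes with a group mean of at least 50 RPM the next were Anxa2 (annexin), Mt1 (metallothionein), Prkch (a protein kinase C), Elf3 (an epithelial transcription factor), Bcat1 (branched-chain amino acid catabolism), Htra1 (a secreted protease) and Hspb1 (a small heat shock protein). Their log2 differences ran from 4.14 for Hspb1 to 5.12 for Anxa2, and Anxa2 itself was at 304 and 91.5 RPM against 5.31 and 2.71 RPM.

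Several of the largest decreases are genes of male fate or of the later germ cell programme, described below. Scml2, an X-linked Polycomb-related gene of the germline, fell to 3.53 and 1.55 RPM in d4c7 from 56.9 and 51.2 RPM in males (-4.01 ± 0.32). Pdia4, which encodes a protein disulfide isomerase of the endoplasmic reticulum, was at 1.18 and 12.8 RPM against 78.5 and 88.2 RPM (-3.94 ± 0.77), so its d4c7 libraries were far apart and both under the males. Other genes among the 10 largest decreases with a group mean of at least 50 RPM were Lefty2, Slc25a31, Etv1, Asz1, Mael, Pdlim3 (a muscle LIM protein gene) and Mov10l1. The lowest log2 difference of all belonged to the predicted gene Gm19592, named here after its values were seen, at 1.57 and 12.9 RPM against 462 and 498 RPM.

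**Figure D1:**
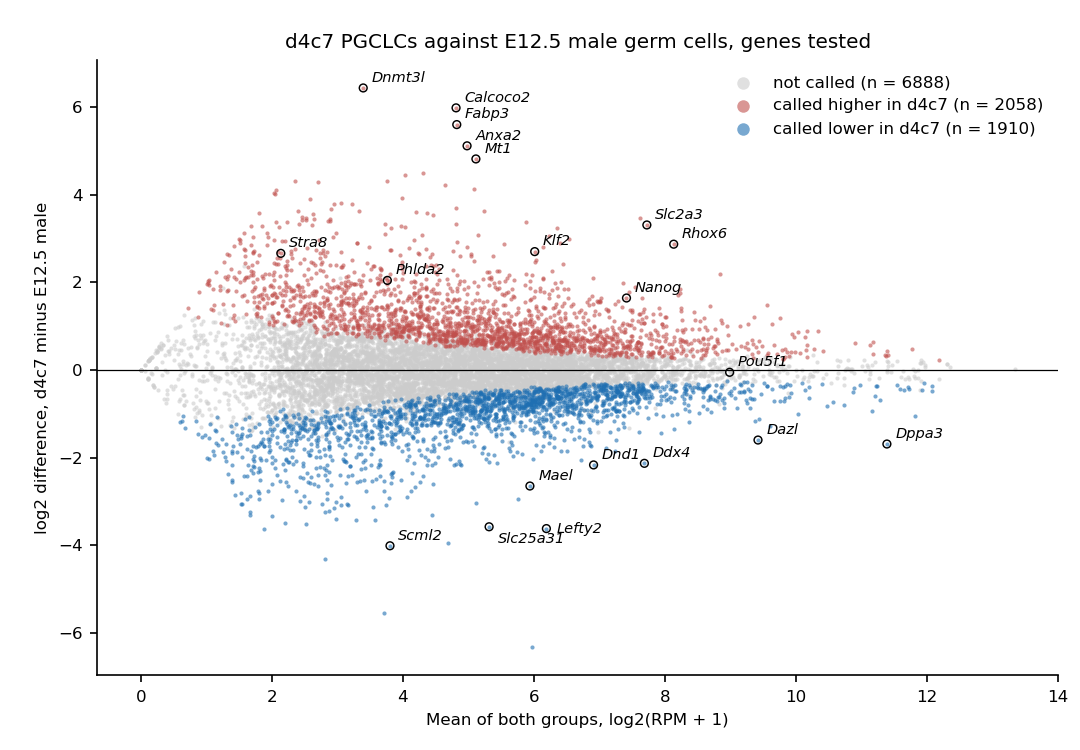
Each point is 1 of 10856 tested genes, with the mean of both groups on the x axis (log2(RPM + 1)) and the log2 difference, d4c7 minus E12.5 males, on the y axis. Red genes were called higher in d4c7 (2058), blue genes lower (1910) and grey genes were not called; Dnmt3l at 6.44 is the highest outlined gene and Scml2 at -4.01 the lowest, and Pou5f1 lies near 0.

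Genes of the late germ cell programme were mostly lower in the cultured cells. Of 29 listed genes, 25 were tested, 14 were lower, 1 was higher and 10 were not called, against 17.6% lower and 19% higher of all tested genes. The median log2 difference was -1.42 against -0.01 over all tested genes. Slc25a31 (NCBI gene 73333), the ADP/ATP carrier of germ cells, was at 12.2 and 8.96 RPM in d4c7 and at 126 and 147 RPM in males (-3.58 ± 0.24, adjusted p = 2.61e-07). Asz1, a mitochondrial-surface protein of the piRNA pathway, was at 11.8 and 10.5 RPM against 96.6 and 101 RPM (-3.04 ± 0.39). Mael, a piRNA pathway protein of the germ granule, was at 31.4 and 16.7 RPM against 145 and 154 RPM (-2.65 ± 0.34). In these 3 genes the lower male library was more than 4-fold above the higher d4c7 library. Of the 14 lower genes, 13 kept the call with each of the 4 libraries left out, and Tdrd7, a germ granule gene, did not (adjusted p = 0.106 without male replicate 1 and 0.0585 without d4c7 replicate 1).

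The classical markers of gonadal germ cells were present in culture, below the male level. Ddx4 (vasa), an RNA helicase, was at 118 and 78.9 RPM in d4c7 and 424 and 429 RPM in males (-2.13 ± 0.21, adjusted p = 6.68e-06). Dazl, an RNA-binding protein that licenses germ cells for sexual differentiation, was at 505 and 296 RPM against 1163 and 1185 RPM (-1.60 ± 0.29, adjusted p = 0.000758). For both genes d4c7 replicate 1 was above replicate 2, and both lay under the males. Tex11, an X-linked meiotic gene, was near the floor in culture at 0.785 and 3.10 RPM against 13.4 and 13.2 RPM (-2.41 ± 0.45), and Mov10l1, the helicase that feeds piRNA precursors to Piwi proteins, was at 9.42 and 14.8 RPM against 52.5 and 61.4 RPM (-2.17 ± 0.28).

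Members of the list did not all share the deficit. Named after their values were seen, Piwil2, a Piwi protein gene, was at 108 and 80.5 RPM in d4c7 and 88.5 and 100.0 RPM in males (-0.01 ± 0.16, not called). Hormad1, which encodes a protein of meiotic chromosome axes, was at 69.1 and 48.0 RPM against 74.1 and 64.6 RPM (-0.26 ± 0.26, not called). For both genes the ranges of the groups overlapped. Gtsf1l, a relative of the piRNA factor Gtsf1, was the 1 higher member (2 were called higher without d4c7 replicate 2), at 44.6 and 60.3 RPM against 19.7 and 14.6 RPM (1.56 ± 0.23, adjusted p = 0.000180). Values within the list ran from -3.58 to 1.56 on the log2 scale.

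**Figure D2:**
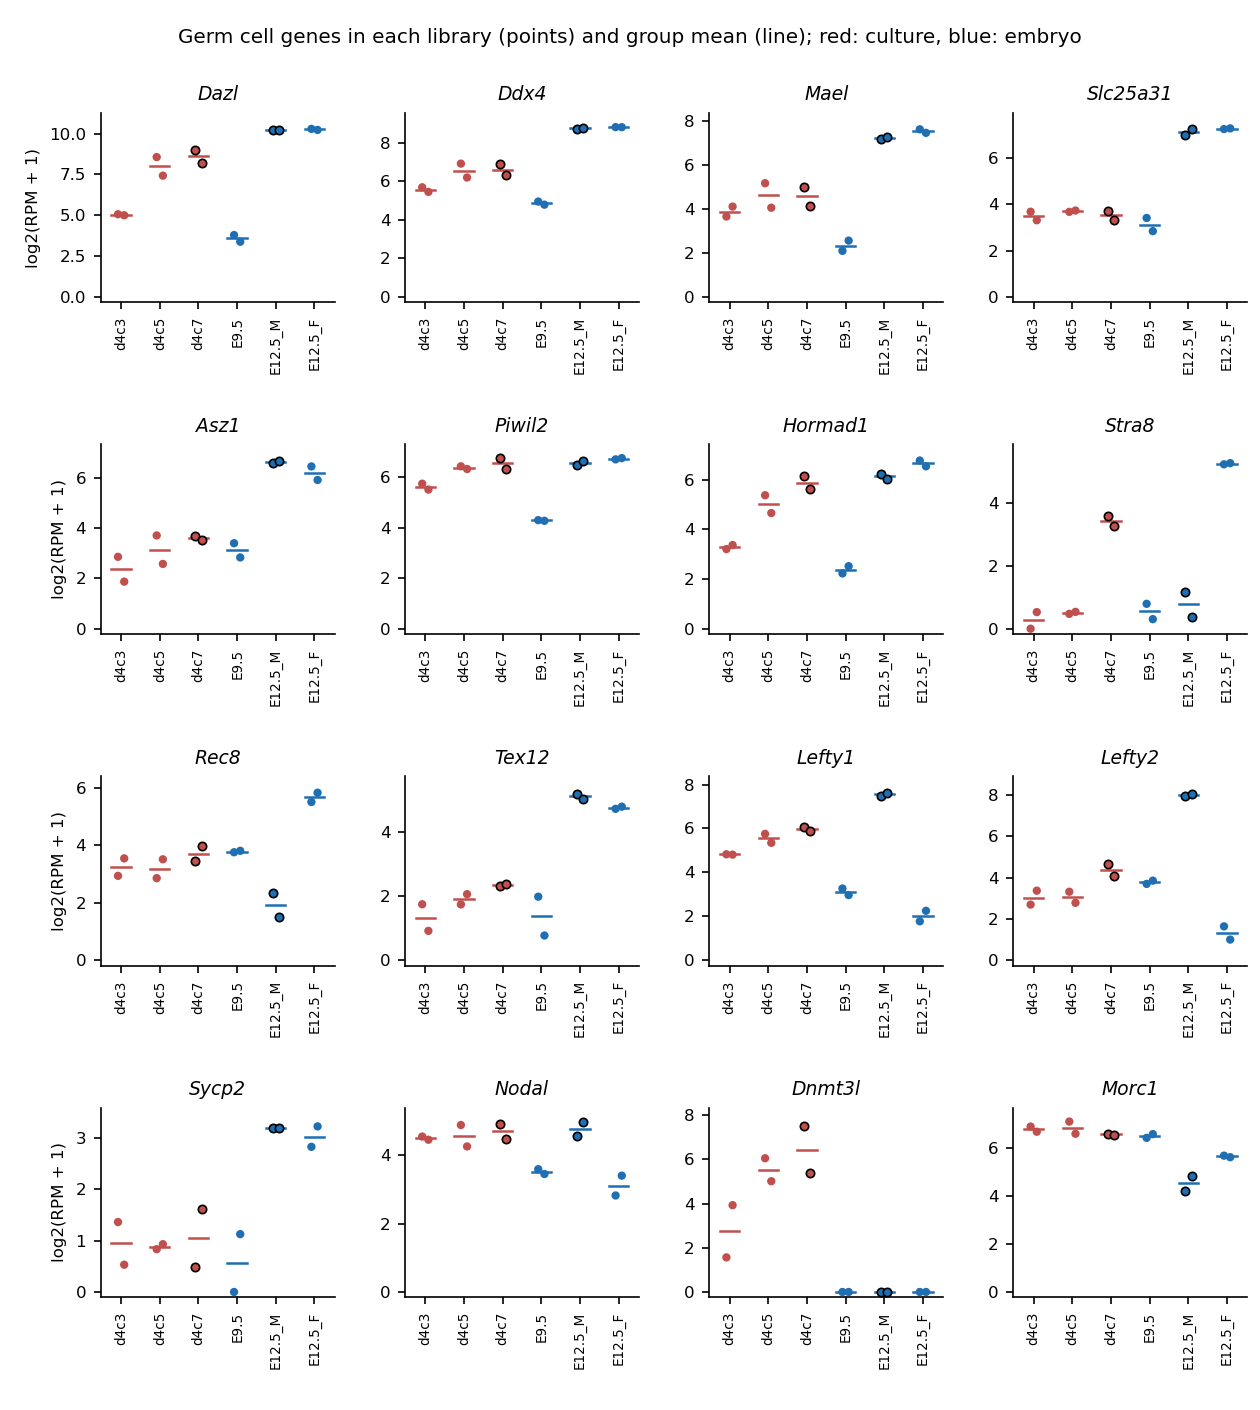
Level of 16 germ cell genes in all 12 libraries, as log2(RPM + 1) on the y axis and the 6 groups on the x axis, with 1 point per library and a line at the group mean; d4c7 and E12.5 males are outlined. Slc25a31, Asz1 and Tex12 stay low in the 6 culture libraries, Piwil2 and Hormad1 reach the male level in d4c7, and Stra8 is higher in d4c7 than in males.

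Promoters of this class are shown because some genes of the late programme are known targets of repressors that bind E-box or E2F6 motifs. RefSeq GRCm38.p6 sequences for the 250 bases before the first listed start were available for 8448 of the 10856 tested genes and for 21 of the 25 tested late germ cell genes. The palindromic E-box CACGTG occurred in 8.82% of the 8448 promoters, and the E2F6-type motif TTCCCGC, or GCGGGAA on the other strand, in 7.61%. Both strands were searched, and the E-box and the E2F6-type motif can share 1 base. Among the lower late germ cell genes, 6 of 13 promoters held the E-box (46.2%) and 3 held the E2F6-type motif. Among the members not called they were 2 and 1 of 7. On the meiosis list the E-box was in 3 of 9 lower and 2 of 6 uncalled genes (33.3% each), and the E2F6-type motif in 2 of each, so neither motif was more frequent among the lower genes there. In the 250 bases the lower genes Asz1 and Sycp2 and the higher gene Stra8, not printed here, held neither motif. The lower genes printed below each held a motif, so these examples do not show how motifs go with direction. The first 190 of the 250 bases are printed on the gene's strand, with motif letters in capitals. The genes are Slc25a31 and Mael of the late germ cell list, Tex12 of the meiosis list and Rec8, a meiosis gene higher in d4c7 with no motif.
Slc25a31, chr3:40708621-40708810, + strand: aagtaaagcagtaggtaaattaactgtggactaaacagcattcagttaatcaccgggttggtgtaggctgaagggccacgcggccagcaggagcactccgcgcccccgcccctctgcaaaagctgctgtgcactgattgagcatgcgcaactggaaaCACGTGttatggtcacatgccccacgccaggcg
Mael, chr1:166238805-166238994, - strand: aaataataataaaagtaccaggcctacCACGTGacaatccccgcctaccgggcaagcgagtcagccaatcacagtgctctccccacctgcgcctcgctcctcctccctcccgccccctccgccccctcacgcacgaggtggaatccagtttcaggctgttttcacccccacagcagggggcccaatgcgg
Tex12, chr9:50561329-50561518, - strand: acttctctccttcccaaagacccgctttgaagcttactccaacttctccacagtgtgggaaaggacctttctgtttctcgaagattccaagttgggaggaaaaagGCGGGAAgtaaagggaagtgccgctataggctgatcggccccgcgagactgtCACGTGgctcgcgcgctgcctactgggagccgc
Rec8, chr14:55617916-55618105, + strand: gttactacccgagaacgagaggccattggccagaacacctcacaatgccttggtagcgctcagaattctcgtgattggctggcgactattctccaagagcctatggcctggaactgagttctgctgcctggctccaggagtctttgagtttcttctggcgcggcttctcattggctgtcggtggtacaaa
Within the 250 bases Slc25a31 and Mael each held 1 E-box and 18 CpG dinucleotides. Tex12 held 1 E-box, 1 E2F6-type motif and 20 CpG dinucleotides, while Rec8 held neither motif and 10 CpG dinucleotides. The median over all 8448 promoters was 17 CpG dinucleotides. A match describes these letters and is not a binding site.

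Meiotic genes were also called lower more often than higher. Of 30 listed genes 19 were tested, of which 10 were lower, 2 higher and 7 not called, with a median log2 difference of -1.17. The shares over all tested genes were 17.6% lower and 19% higher. Tex12, a central element protein of the synaptonemal complex, was at 3.93 and 4.14 RPM in d4c7 and 35.3 and 31.6 RPM in males (-2.77 ± 0.40, adjusted p = 0.000157). Sycp2, an axis protein of the same complex, was at 0.393 and 2.07 RPM against 8.13 and 8.13 RPM (-2.14 ± 0.48, adjusted p = 0.00335). Both genes were low in culture, with Sycp2 in d4c7 replicate 1 under the floor of 3 reads. The count of lower genes rested in part on single libraries and was 7, 8, 8 and 5 without d4c7 replicate 1, d4c7 replicate 2, male replicate 1 and male replicate 2, and 5 of the 10 kept the call in all 4 cases.

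Stra8, the retinoic acid-induced gate of meiotic entry, was at 11.0 and 8.79 RPM in d4c7 and 1.25 and 0.301 RPM in males (2.66 ± 0.38, adjusted p = 0.000148). In females of the same age it stood at 37.0 and 38.0 RPM, and in d4c5 at 0.390 and 0.452 RPM. Both d4c7 libraries thus lay above the males and below the females. Rec8, the meiotic cohesin subunit, was at 9.82 and 14.8 RPM in d4c7, 4.06 and 1.81 RPM in males and 44.3 and 55.6 RPM in females (1.80 ± 0.36 against males, adjusted p = 0.00168). Sycp3, an axis protein gene, was not called, at 26.7 and 20.2 RPM against 16.3 and 19.6 RPM (0.36 ± 0.38). Of the retinoic acid list, 3 of 15 tested genes were higher and 3 lower, near the shares of all tested genes. Cyp26a1, the enzyme that degrades retinoic acid and is induced by it, was at 22.0 and 10.5 RPM in d4c7 and at 0 in both male libraries, at least 17.3-fold higher by the mean on the floor of 3 reads, or 11.2-fold by the lower d4c7 library. Rara, a retinoic acid receptor gene, went the other way at 2.38 and 4.15 RPM against 15.3 and 17.8 RPM (-2.07 ± 0.44, adjusted p = 0.00238). So did Aldh1a1, a retinaldehyde dehydrogenase, at 0.393 and 0.517 RPM against 5.94 and 9.03 RPM, and Rxrb, a partner receptor, at 20.4 and 29.1 RPM against 51.3 and 48.5 RPM. In this list 1 gene was called higher without male replicate 2, and 2 without male replicate 1.

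Genes linked to male fate were called lower in culture more often than higher. Of 20 listed genes 16 were tested, with 8 lower, 2 higher, 6 not called and a median log2 difference of -1.02. Among all tested genes 17.6% were lower and 19% higher. Of the antagonists that Nodal induces, Lefty2 was at 24.5 and 15.6 RPM in d4c7 and 241 and 264 RPM in males (-3.62 ± 0.33, adjusted p = 3.00e-06), against 2.12 and 1.01 RPM in females. Lefty1 was at 66.9 and 57.8 RPM against 179 and 196 RPM (-1.57 ± 0.22, adjusted p = 0.000139), with 2.43 and 3.77 RPM in females. For both, d4c7 lay below males and above females, and since the 2 genes are close copies, reads shared between them may be split uncertainly. Nodal, the ligand, was at 29.1 and 21.4 RPM in d4c7 and 22.5 and 30.4 RPM in males (-0.07 ± 0.29, adjusted p = 0.877), and the ranges overlapped.

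The 2 higher members of the male fate list were Dnmt3l and Morc1. Morc1, an ATPase gene that acts in transposon silencing in male germ cells, was at 95.4 and 90.7 RPM in d4c7 and 17.5 and 27.7 RPM in males (2.03 ± 0.20, adjusted p = 7.58e-06). Nanos2, a later determinant of male fate, was too low to be tested, at 0 in both d4c7 libraries and at 1.88 and 1.81 RPM in males. Dnmt3l, a gene of later prospermatogonia, was at 0 in all embryonic libraries and at 1.96 and 14.2 RPM in d4c3. Of the 8 lower members, 5 kept the call with each library left out.

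Early germ cell genes were called higher in culture more often than lower. Of 19 listed genes 16 were tested, with 9 higher, 4 lower, 3 not called and a median log2 difference of 0.69. The shares over all tested genes were 19% higher and 17.6% lower. Tfap2c, a specification factor, was at 159 and 179 RPM in d4c7 and 56.9 and 72.6 RPM in males (1.38 ± 0.16, adjusted p = 1.96e-05). Prdm1, which encodes Blimp1 and by whose reporter the d4c7 cells but not the males were sorted, was at 88.3 and 120.1 RPM against 64.4 and 62.6 RPM (0.69 ± 0.15, adjusted p = 0.00301). The X-linked homeobox genes Rhox6 and Rhox9 were the farthest apart, at 850.3 and 674 RPM against 108 and 97.2 RPM (2.87 ± 0.13) and at 988 and 975 RPM against 237 and 194 RPM (2.19 ± 0.13), with reads between these related genes possibly split. In all 4 of these genes the lower d4c7 library was above the higher male library.

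Dppa3, which encodes Stella, was lower in d4c7 at 1316 and 1684 RPM against 4770.4 and 4846 RPM (-1.69 ± 0.10, adjusted p = 1.12e-07). Cells of both groups carry a Stella reporter, but the males were sorted by it and the d4c7 cells by the Blimp1 reporter. For Dppa3 and Prdm1 the sort thus cannot be told apart from culture. Dnd1, whose RNA-binding product germ cells need to survive, was at 49.1 and 62.9 RPM against 242 and 265 RPM (-2.17 ± 0.14, adjusted p = 1.29e-07). Sox3, an X-linked SOX factor gene, was at or below the floor in culture at 0.785 and 0 RPM against 3.75 and 4.21 RPM (-1.90 ± 0.47). The last lower member, named after its values were seen, was Fut4, which encodes the enzyme of the SSEA1 epitope (log2 difference -1.68 ± 0.44, adjusted p = 0.00886, and 0.113 without male replicate 1). These genes go against the direction of the higher members, of which 8 of 9 kept the call with each library left out.

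Pluripotency genes were also called higher more often than lower. All 26 listed genes were tested, and 15 were higher, 7 lower and 4 not called, with a median log2 difference of 0.60. Among all tested genes 19% were higher and 17.6% lower. Klf2, a naive pluripotency factor, was at 210.5 and 119.8 RPM in d4c7 and 18.8 and 29.5 RPM in males (2.70 ± 0.25, adjusted p = 3.52e-06). Nanog was at 294 and 307 RPM against 102 and 89.7 RPM (1.64 ± 0.13, adjusted p = 7.73e-07), and Sox2 was at 368 and 366 RPM against 169.7 and 194 RPM (1.01 ± 0.11, adjusted p = 1.32e-05). Nanog and Sox2 were close between replicates, whereas Klf2 was higher in d4c7 replicate 1 than in replicate 2. Nr6a1, the germ cell nuclear factor gene that represses Oct4 in differentiating cells, was at 69.1 and 97.7 RPM against 14.4 and 19.6 RPM in males and 155 and 175 RPM in females (2.23 ± 0.19 against males). Fgf4, a growth factor of the epiblast, was at 12.6 and 6.03 RPM in d4c7 and 0 in both male libraries, at least 9.92-fold higher by the mean, or 6.43-fold by the lower d4c7 library. The 7 lower members were named after their values were seen: Lin28b, Utf1, Sall1, Lin28a, Tcl1, L1td1 and Trim71. The largest of these falls was in Lin28b, an inhibitor of let-7 maturation, at 5.10 and 5.17 RPM against 17.2 and 15.4 RPM (-1.49 ± 0.24). Of the 22 calls, 16 were kept with each library left out; the lower calls lost were Sall1 (adjusted p = 0.327 without d4c7 replicate 2, and 0.106 and 0.175 without male replicates 1 and 2) and Lin28a (0.381 without d4c7 replicate 1, and 0.215 and 0.0782 without male replicates 1 and 2).

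**Figure D3:**
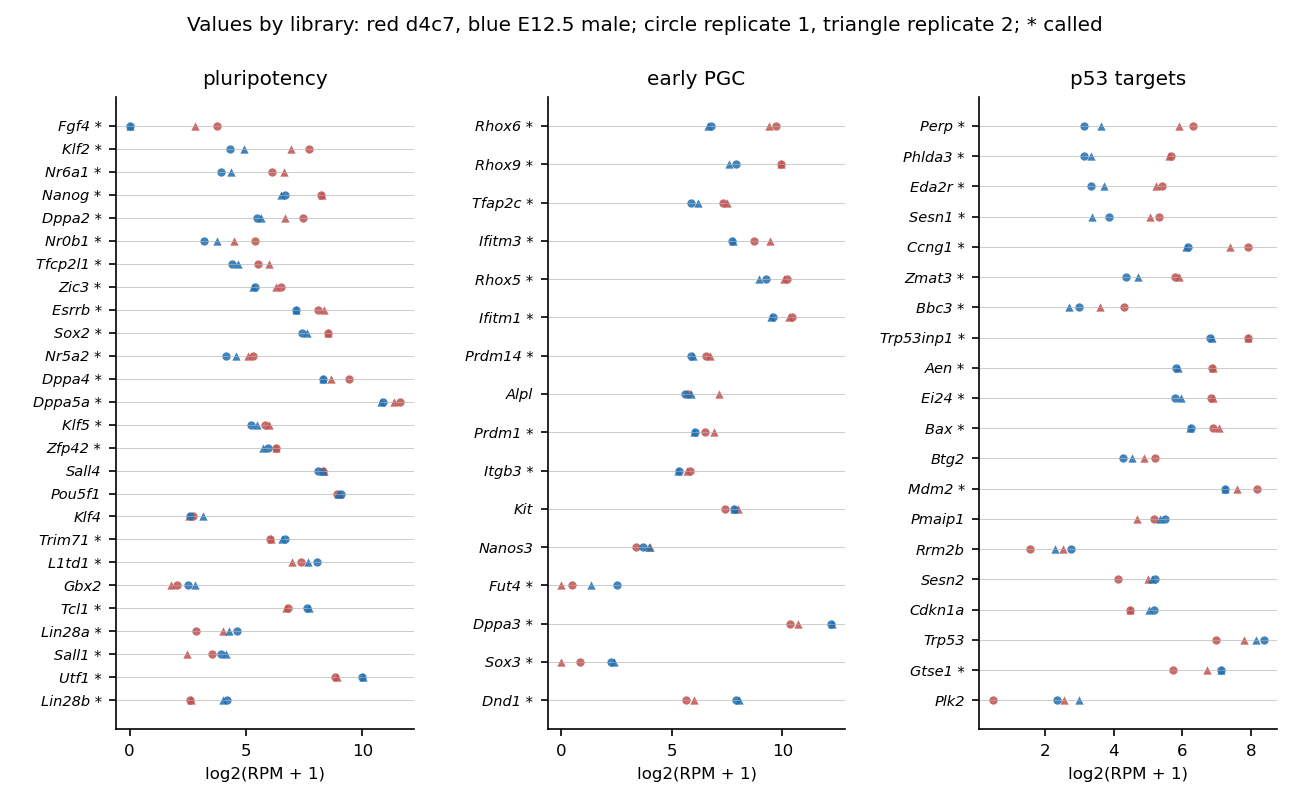
Level in each of the 4 libraries, as log2(RPM + 1) on the x axis, for tested members of the pluripotency, early germ cell (early PGC) and p53 target lists, ordered by log2 difference; red is d4c7, blue E12.5 males, circles replicate 1, triangles replicate 2, and an asterisk marks a call. Klf2, Rhox6 and Perp lie near the top, where red points are right of blue points, and Lin28b, Dnd1 and Gtse1 near the bottom, where they are left of them.

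Genes of the DNA methylation machinery had calls in both directions. Of 14 listed genes 12 were tested, with 3 higher and 4 lower, against 19% and 17.6% of all tested genes. Besides Dnmt3l, the higher members were Mbd2, a methyl-CpG-binding protein gene, at 23.2 and 24.3 RPM against 3.13 and 7.83 RPM (2.03 ± 0.34), and Dnmt3b, a de novo methyltransferase gene, at 21.2 and 42.9 RPM against 6.56 and 11.1 RPM (1.70 ± 0.37, adjusted p = 0.00288). Dnmt3a, the other de novo enzyme, was lower at 10.2 and 18.8 RPM against 34.1 and 33.1 RPM (-1.22 ± 0.30, adjusted p = 0.00602, and 0.0595 without d4c7 replicate 1). The catalytic de novo enzymes thus went opposite ways.

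Of the maintenance pair, Dnmt1 was at 146 and 221 RPM against 254 and 272 RPM (-0.55 ± 0.17, adjusted p = 0.0218), and the call was lost without d4c7 replicate 1 (0.230), male replicate 1 (0.0688) or male replicate 2 (0.123). Its recruiter Uhrf1 was low in both groups at 8.25 and 12.2 RPM against 18.1 and 15.1 RPM (-0.66 ± 0.33, adjusted p = 0.132). Lower members of the list numbered 1 without d4c7 replicate 1, 2 without either male library and 6 without d4c7 replicate 2. Among 16 tested genes of demethylation and base excision repair, 4 were higher and 2 lower, against 19% and 17.6% of all tested genes. Tdg, the glycosylase that removes oxidised methylcytosine, was at 93.8 and 97.6 RPM against 39.9 and 34.5 RPM (1.34 ± 0.15, adjusted p = 1.32e-05), and Gadd45a, a stress-induced gene linked to demethylation, was at 32.2 and 31.4 RPM against 10.9 and 6.92 RPM (1.75 ± 0.23). Tet1, a dioxygenase that oxidises methylcytosine, was at 101 and 168 RPM against 126 and 128 RPM (0.04 ± 0.21) and was not called. Of these genes 2 were higher without d4c7 replicate 1, d4c7 replicate 2 or male replicate 2, while 5 were lower without d4c7 replicate 2 and 1 without any of the other libraries.

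Polycomb genes, whose products write and read H3K27 methylation and H2A ubiquitination, were called higher more often than lower, and most were not called. Of 29 tested members 12 were higher, 1 lower and 16 not called, with a median log2 difference of 0.21. Among all tested genes 19% were higher and 17.6% lower. The lower member was Bmi1, named after its values were seen. Scml2, lower in d4c7 as given above, is not on this list. Phf19, a PRC2 accessory subunit that reads H3K36 methylation, was at 158 and 144 RPM in d4c7 and 25.0 and 28.3 RPM in males (2.46 ± 0.12, adjusted p = 2.17e-08), with 99.7 and 100.1 RPM in females. The gene listed as E130012A19Rik, another PRC2 accessory factor known as Epop, stood at 53.4 and 38.1 RPM in d4c7, with a log2 difference of 1.73 ± 0.26. Of PRC1, Pcgf5 was at 112 and 103 RPM against 31.3 and 37.6 RPM (1.62 ± 0.14) and Rybp at 116 and 114 RPM against 54.1 and 44.7 RPM (1.21 ± 0.16). These 4 genes are accessory or variant subunits, and the PRC2 core genes Ezh2, Eed and Suz12, named after their values were seen, showed smaller differences of 0.58, 0.80 and 0.81. The Suz12 call was lost without d4c7 replicate 1 (adjusted p = 0.208) and without either male library (0.0787 and 0.0845). Of the 12 higher members 8 kept the call with each library left out, and lower members numbered 2 without d4c7 replicate 1 and 4 without d4c7 replicate 2. Among 20 tested genes of H3K9 methylation, 2 were higher and 3 lower, against 19% and 17.6% of all tested genes. The largest difference was in Kdm4c, an H3K9 demethylase gene, at 27.1 and 29.6 RPM against 10.6 and 12.3 RPM (1.24 ± 0.22), and none of the 3 lower calls was kept with every library left out; 5 members were lower without d4c7 replicate 2, and 0 lower and 1 higher without male replicate 2.

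Imprinted genes, which are expressed from the allele of 1 parent under a mark that germ cells erase, had calls in both directions. Of 35 tested members 8 were higher, 7 lower and 20 not called, shares near those of all tested genes (19% and 17.6%), with a median log2 difference of 0.08. Slc38a4, an amino acid transporter gene, was at 198 and 261 RPM in d4c7 and 31.3 and 28.0 RPM in males (2.90 ± 0.17, adjusted p = 7.35e-08). Phlda2, a growth restrictor of the placenta, was at 24.3 and 29.0 RPM against 5.63 and 5.72 RPM (2.05 ± 0.14, adjusted p = 3.15e-07), far under the females at 468 and 490.3 RPM. H19, a non-coding RNA gene, was at 20.8 and 43.3 RPM against 13.1 and 7.53 RPM (1.50 ± 0.30, adjusted p = 0.00156). In Slc38a4 and Phlda2 replicates were close, while H19 differed between the d4c7 libraries.

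Igf2, the growth factor gene next to H19, was low in both groups at 1.18 and 3.45 RPM against 5.31 and 5.72 RPM (-1.07 ± 0.38, adjusted p = 0.0390), and its call was lost without d4c7 replicate 1 (0.307) or either male library (0.110 and 0.142). Usp29 was at 2.75 and 6.03 RPM against 24.1 and 11.1 RPM (-1.76 ± 0.46), lost without d4c7 replicate 1 (0.0786) or male replicate 1 (0.113). Snrpn was listed near 0 in d4c7 at 0.0301 and 0.0109 RPM against 10.9 and 6.82 RPM (-3.24 ± 0.42), but it overlaps Snurf, which stood at 201 and 156 RPM against 148 and 174 RPM, so how reads were divided between them is uncertain. Of the 7 lower calls 1 was kept with every library left out, and 3, 6, 3 and 2 lower members were called without d4c7 replicate 1, d4c7 replicate 2, male replicate 1 and male replicate 2.

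Of the targets of the tumour suppressor p53 more were called higher than lower in culture, while the p53 gene itself was not called. Of 22 listed genes 20 were tested, with 12 higher, 1 lower, 7 not called and a median log2 difference of 0.86. The shares over all tested genes were 19% higher and 17.6% lower. Perp, an effector of p53-dependent death, was at 78.9 and 58.6 RPM in d4c7 and 7.81 and 11.4 RPM in males (2.72 ± 0.31, adjusted p = 1.92e-05). Phlda3, an inhibitor of Akt, was at 49.5 and 47.7 RPM against 7.81 and 9.03 RPM (2.40 ± 0.26, adjusted p = 1.23e-05). Eda2r, a death receptor gene, was at 41.6 and 36.5 RPM against 9.07 and 12.0 RPM (1.80 ± 0.33), and Sesn1, a stress-induced regulator of mTORC1, was at 38.9 and 32.4 RPM against 13.4 and 9.33 RPM (1.58 ± 0.26). All 4 separated the groups with close replicates. Named after their values were seen, Trp53, which encodes p53, was at 125 and 221 RPM against 328 and 283 RPM (-0.87 ± 0.73, not called), with the error pooled over groups whose replicates lay far apart, and the arrest gene Cdkn1a at 21.2 and 21.0 RPM against 35.0 and 31.6 RPM (-0.63 ± 0.28, not called). Of the 12 higher members 10 kept the call with each library left out, and the 1 lower member, the cell cycle gene Gtse1, lost it without d4c7 replicate 1 (adjusted p = 0.262) or either male library (0.102 and 0.106). Lower members numbered 2 without d4c7 replicate 2.

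Of 17 tested FGF and ERK feedback genes 5 were higher and 5 lower, so that 10 were called, against 36.6% of all tested genes. The ETS factor genes Etv1 and Etv4 were lower, at 6.28 and 5.52 RPM against 65.2 and 69.7 RPM (-3.31 ± 0.29, adjusted p = 2.47e-06) and at 2.75 and 10.7 RPM against 39.7 and 43.4 RPM (-2.68 ± 0.57). Fgfr2, a receptor gene, was higher at 151 and 98.6 RPM against 29.4 and 28.6 RPM (2.04 ± 0.24, adjusted p = 2.61e-05). Females stood at 7.43 and 6.79 RPM for Etv1, near the d4c7 level, but at 26.1 and 25.4 RPM for Etv4, between d4c7 and males. Of 17 tested cAMP response genes, 2 were higher and 3 lower. Over all tested genes, the measure for this list and for the BMP list below, 19% were higher and 17.6% lower. Prkar2a, a regulatory subunit gene of protein kinase A, was at 15.3 and 15.7 RPM against 6.00 and 3.61 RPM (1.54 ± 0.30), and Prkacb, a catalytic subunit gene, was at 22.8 and 24.6 RPM against 45.0 and 49.4 RPM (-0.96 ± 0.19). Of 16 tested BMP response genes, 3 were higher and 1 lower, with Gata2, a transcription factor gene, at 50.3 and 48.3 RPM against 11.9 and 13.5 RPM (1.88 ± 0.20); 1 was higher without d4c7 replicate 1, and 2 and 0 were lower without d4c7 replicate 2 and male replicate 2. Of the cAMP list 1 member was higher without d4c7 replicate 2 or either male library, and 1 lower without male replicate 2.

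Among surface and junction genes, 5 of 23 tested were higher and 3 lower, against 19% and 17.6% of all tested genes. Of the claudin genes, which encode tight junction proteins, Cldn4 was at 10.6 and 11.5 RPM in d4c7 and 0 in both male libraries, at least 11.8-fold higher, and Cldn6 was at 22.8 and 24.1 RPM against 5.63 and 4.82 RPM (1.98 ± 0.26). Cd9, a tetraspanin of germ and stem cells, was at 316 and 330.2 RPM against 93.8 and 91.8 RPM (1.79 ± 0.15, adjusted p = 1.41e-06). Cdh2, which encodes N-cadherin, was at 3.14 and 1.03 RPM against 7.81 and 10.5 RPM (-1.80 ± 0.38). Both claudins of this list named here were thus higher in culture and N-cadherin lower. Cldn5, an endothelial claudin gene on the blood and endothelium list, named after its values were seen, was lower at 2.75 and 4.48 RPM against 10.0 and 7.53 RPM (-1.10 ± 0.35, adjusted p = 0.0264). Its call was lost without d4c7 replicate 1 and without either male library. Counts of the surface and junction list also moved with single libraries. Lower members of this list numbered 6 without d4c7 replicate 2.

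Metabolic lists had calls in both directions, with 9 of 21 glycolysis genes, 12 of 29 oxidative phosphorylation genes and 8 of 24 cholesterol synthesis genes called, against 36.6% of all tested genes. Slc2a3, a high-affinity glucose transporter gene, was at 536 and 810.3 RPM in d4c7 and 68.1 and 62.9 RPM in males (3.31 ± 0.21, adjusted p = 1.34e-07), while 6 of 21 tested glycolysis genes were lower and 3 higher. Pfkl, a phosphofructokinase gene, was at 5.89 and 2.93 RPM against 17.8 and 28.0 RPM (-2.17 ± 0.32), and Pdk1, which restrains pyruvate entry into mitochondria, was at 58.5 and 77.6 RPM against 138 and 135 RPM (-1.01 ± 0.21). Slc2a3 and these enzymes thus went opposite ways, but the list did not divide into transporter and enzymes. The other higher members, Aldoc (1.11 ± 0.40) and Pgam1, the latter named after its values were seen, also encode glycolytic enzymes. Without d4c7 replicate 1 or replicate 2, 6 glycolysis genes were called higher. Of 24 tested cholesterol synthesis genes 5 were lower and 3 higher, with Insig1, a sterol-sensing regulator, at 14.1 and 13.3 RPM against 40.6 and 42.1 RPM (-1.53 ± 0.31). Lower cholesterol genes numbered 3 without d4c7 replicate 1 or male replicate 2, and 8 without d4c7 replicate 2.

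Of 29 tested oxidative phosphorylation genes 5 were higher and 7 lower, led by Cox6c, a subunit gene of complex IV, at 680.1 and 678 RPM against 256 and 239.6 RPM (1.45 ± 0.10) and by Ndufv1 of complex I at 75.8 and 130.5 RPM against 198 and 203 RPM (adjusted p = 0.00150). Of 24 tested amino acid and unfolded protein stress genes, 6 were lower and 3 higher, against 17.6% and 19% of all tested genes. Among the higher ones was Slc7a3, a cationic amino acid transporter gene, at 30.6 and 35.0 RPM against 9.38 and 9.94 RPM (1.66 ± 0.24). Of 15 tested hypoxia targets 2 were higher and 3 lower, against the same shares of 19% and 17.6%. Vegfa, the endothelial growth factor gene, was at 7.46 and 11.2 RPM against 0 and 1.51 RPM (2.68 ± 0.39). Lower oxidative phosphorylation genes numbered 3 without either male library. Of the hypoxia list 1 gene was higher without male replicate 2, and 1 lower without d4c7 replicate 2 or male replicate 2.

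Proliferation genes were similar in median, at -0.01, with 5 higher and 9 lower of 30, against 19% and 17.6% of all tested genes. Pold1, a subunit gene of DNA polymerase delta, was at 33.8 and 76.7 RPM against 119 and 114 RPM (-1.18 ± 0.27, adjusted p = 0.00442), and Cdc6, a replication licensing gene, was at 52.6 and 53.5 RPM against 28.1 and 25.6 RPM (0.96 ± 0.21). Higher members numbered 2 without d4c7 replicate 1 or either male library, and lower members 5 without male replicate 2. Among 22 tested G1 cyclins and inhibitors, Ccne1, which encodes cyclin E1, was at 137 and 118 RPM against 48.1 and 45.8 RPM (1.42 ± 0.17, adjusted p = 3.81e-05). Skp2, the ubiquitin ligase subunit that removes p27, was at 134 and 97.2 RPM against 39.7 and 45.5 RPM (1.41 ± 0.16). Mycl1, a MYC family gene, went down in culture at 3.93 and 7.41 RPM against 37.2 and 34.0 RPM (-2.51 ± 0.34). Against 19% and 17.6% of all tested genes, 5 of this list were higher and 3 lower. They were 3 higher without male replicate 1, 2 higher and 1 lower without male replicate 2, and 6 lower without d4c7 replicate 2.

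**Figure D4:**
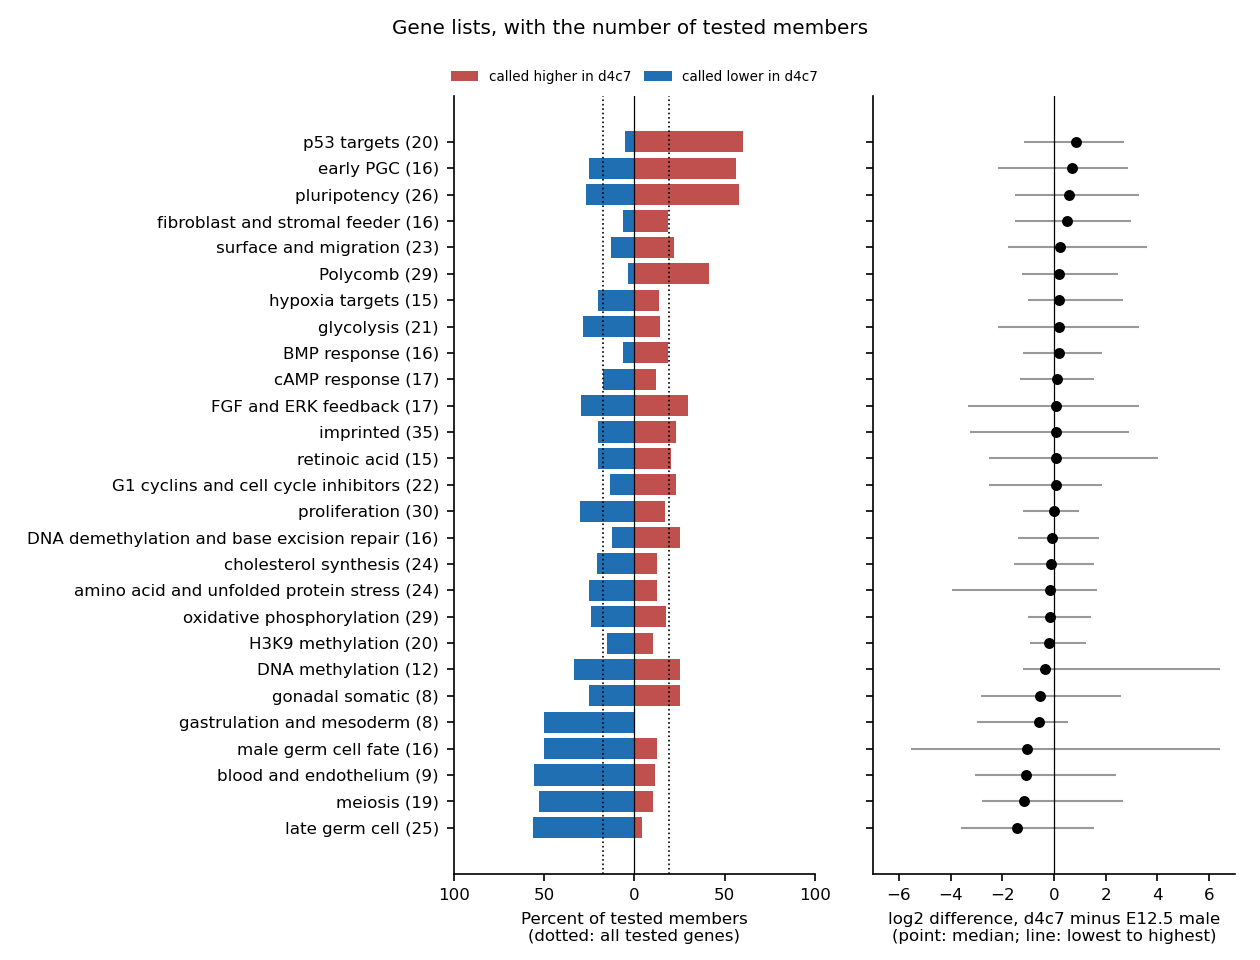
Left, the percent of tested members called higher (red, to the right) or lower (blue, to the left) in d4c7 for each of 27 lists, with dotted lines at 19% and 17.6% for all tested genes; right, the median (point) and the lowest and highest (line) log2 difference, d4c7 minus E12.5 males. The late germ cell list has a median of -1.42 and the p53 list of 0.86.

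Markers of other cells were sparse and differed between the groups. Over all tested genes, the measure for the counts in this and the next paragraph, 19% were higher and 17.6% lower. Of 21 blood and endothelium genes with a row, 15 were at 0 in both d4c7 libraries and 8 in both male libraries, with Ptprc and Cdh5 at 0 in all 4. Of 9 tested, 1 was higher and 5 lower, or 3 lower without d4c7 replicate 1 or male replicate 2. The list summed to 14.9 and 28.1 RPM in d4c7 and to 29.4 and 30.9 RPM in males. Hbb-y, an embryonic globin gene, was at 0 in both d4c7 libraries and at 5.94 and 9.03 RPM in males, at least 6.35-fold lower. Of 31 gonadal somatic genes, 12 were at 0 in both d4c7 libraries and 3 in both male libraries, and the sums were 189 and 115 RPM against 88.2 and 89.8 RPM. Only 3 of the 31, Amh, Cyp17a1 and Cyp11a1, were at 0 in all 4 libraries, and Sox9 was at 0 against 1.25 and 1.81 RPM. Aard and Nr0b1, of which Nr0b1 is also on the pluripotency list, made up most of the d4c7 sum, with Aard at 109 and 55.3 RPM against 10.9 and 12.9 RPM (2.61 ± 0.27).

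Of 28 fibroblast and stromal genes, which the m220 feeder cells could share, the sums were 502 and 680 RPM in d4c7 and 391 and 429 RPM in males, and most of each sum was Fn1 and Sparc. Of 16 tested, 3 were higher and 1 lower, or 5 higher without d4c7 replicate 2 and 0 lower without male replicate 1. Pdgfrb, a fibroblast receptor gene, was at 7.46 and 6.38 RPM in d4c7 and 0 in both male libraries, at least 7.38-fold higher. Sparc, a matrix protein gene, was at 306 and 229 RPM against 82.7 and 95.1 RPM (1.57 ± 0.14). The collagen gene Col3a1 was at 9.42 and 1.55 RPM against 1.56 and 1.81 RPM, above the males in replicate 1 only. Gastrulation and mesoderm genes, 4 of 8 tested lower and none higher, summed to 11.5 and 9.44 RPM in d4c7 and 55.1 and 62.7 RPM in males, with Wnt3 at 2.36 and 3.79 RPM against 21.3 and 24.4 RPM (-2.57 ± 0.47). The part of RNA from other cells in the results above was not tested, and in bulk RNA fewer cells of a type and less RNA per cell cannot be told apart.

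The d4c7 comparison was set against an earlier pair of groups, d4c3 and E9.5, which shares no library with it and has the same confounding. The E9.5 libraries stood apart in blood and endothelium genes, which summed to 4643 and 4107 RPM there, while the remaining 10 libraries lay between 14.9 and 33.0 RPM, and the part of that in the results of the earlier pair was not tested. In that pair 1456 genes were higher in culture (13.4%) and 1118 lower (10.3%). Of genes higher in d4c7, 757 were also higher in d4c3, or 36.8% of the later and 52.0% of the earlier calls. Of genes lower in d4c7, 383 were also lower in d4c3, or 20.1% and 34.3%. A smaller number had opposite calls, with 67 higher in d4c7 and lower in d4c3, and 78 the reverse.

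The difference between both culture minus embryo differences was called for 1838 genes (16.9%), 965 upward and 873 downward. Among the late germ cell genes 18 of 25 were called, among meiosis genes 8 of 19, and among pluripotency genes 13 of 26. Mael was 1.56 at the earlier pair and -2.65 at the later one, having stood at 11.7 and 16.4 RPM in d4c3 and 3.31 and 4.95 RPM at E9.5 (difference -4.21, adjusted p = 0.000107). Dazl was 1.44 and -1.60 (-3.04, adjusted p = 0.000344), and Ddx4 was 0.70 and -2.13 (-2.83, adjusted p = 5.60e-05). These 3 genes were called higher in culture at the earlier pair and lower at the later pair. Klf2 moved the other way, from -0.02 to 2.70 (2.72, adjusted p = 0.000284), and for Phlda3 no change between the pairs was called, at 2.27 and 2.40 (0.13, adjusted p = 0.848). The number of such genes was 1016 and 959 without E9.5 replicates 1 and 2, 1207 without d4c3 replicate 1, 2418 without d4c7 replicate 2, and 1185 and 1116 without male replicates 1 and 2.

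Calls were uneven over 2 chromosomes, which were singled out after the values were seen and carry no test. On chromosome 16, 101 of 341 tested genes were higher in d4c7 (29.6%) and 23 lower (6.74%), with a median log2 difference of 0.27. On chromosome 3, 124 of 487 were higher (25.5%) and 63 lower (12.9%), with a median of 0.15. On the other 18 chromosomes with rows, medians ran from -0.12 to 0.07, with 13.6% to 22.6% higher and 15.2% to 19.5% lower. Against the mean of the 6 embryonic libraries, the chromosome 16 median was 0.40 in d4c7 replicate 1 and 0.14 in replicate 2, and 0.27 to 0.49 in the other 4 culture libraries. The chromosome 3 median was 0.00 in d4c7 replicate 1 and 0.34 in replicate 2, 0.03 and 0.14 in d4c3, and 0.04 and 0.28 in d4c5. On both chromosomes replicate 1 thus differed from replicate 2 in the same direction at all 3 culture days. Without chromosome 16 the calls were 1957 higher and 1887 lower of 10515 genes, and without both chromosomes 1833 and 1824 of 10028. Members named above from chromosome 16 include Morc1, and from chromosome 3 Sox2, Slc25a31, Hormad1 and Prkacb; the part of the chromosome shift in their values was not tested.

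**Figure D5:**
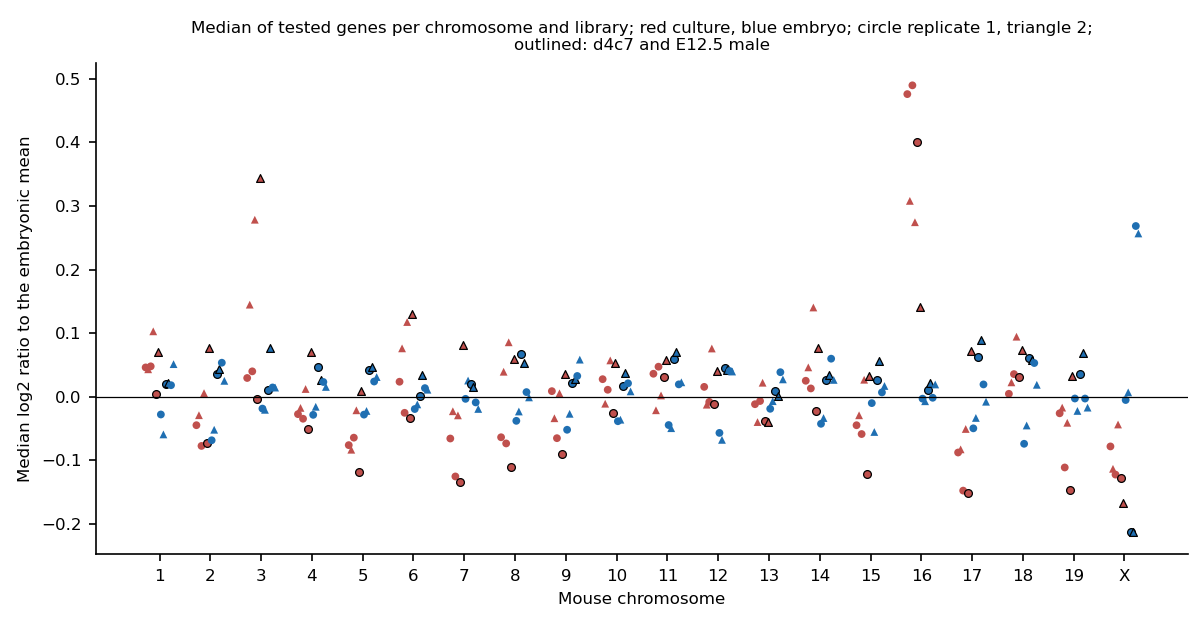
Median over tested genes of the log2 ratio to the mean of the 6 embryonic libraries (y axis) for each mouse chromosome (x axis) and each of the 12 libraries; red is culture, blue embryo, circles replicate 1, triangles replicate 2, and d4c7 and E12.5 males are outlined. Chromosome 16 lies above 0 in all 6 culture libraries, with 0.40 and 0.14 in d4c7, and chromosome 3 lies at 0.34 in d4c7 replicate 2 and at 0.00 in replicate 1.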

How the data were processed

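RNA was sequenced from the 3′ end in 12 libraries on a SOLiD5500xl. The submitters' processing notes list, without their roles, TopHat 1.4.1, Cufflinks 2.2.0, cutadapt 1.3 and the build mm10. The authors deposited RPM values for 26218 gene rows and 92 ERCC rows, and the ERCC rows were left out of tests. Whole reads could not be recovered for nearly all values (80.2% to 85.8% came out whole within 0.1 of a read, up to 20 reads), so no count test was run, and depths are estimates; floors of 3 reads cover counting error only.

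Genes with at least 5 RPM in at least 2 of the 12 columns (10856) were analysed as log2(RPM + 1), which understates changes of low genes, with limma 3.58.1 in R 4.3.3, a mean per group over all 12 libraries, trended variances and Benjamini-Hochberg adjustment. The ± values are standard errors. The script was checked on simulated data. Deviations of same-numbered libraries correlated at 0.0286 between d4c7 and E12.5 males, so the numbers do not pair these groups, but at 0.116 to 0.455 between culture groups.

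The members and the 28 gene lists were chosen with earlier results of these data known. Genes named are up to 4 called members of each list with the largest differences, the 10 largest differences each way among called genes with a group mean of at least 50 RPM (predicted genes left out), the 5 with the largest change between the pairs, and a set of germ cell regulators; others were chosen after their values were seen. Some genes that this rule names are not reported here. The list of Y-linked genes had no rows used here. The pseudocount, filter, scaling, samples fitted, variance model, replicate block and each single library were varied; a block over the culture libraries alone was added after seeing the data.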

Additional observations from a re-analysis of the deposited data

Results flagged for a closer look

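The difference between the later (d4c7 minus E12.5 males) and the earlier (d4c3 minus E9.5) log2 differences was largest in 5 globin genes, which carry oxygen in red blood cells. It was 9.58 for Hba-x, 8.67 for Hbb-bh1, 7.72 for Hbb-y, 6.58 for Hba-a1 and 6.11 for Hba-a2, each called in limma. At E9.5 Hba-x was at 1322 and 1109 RPM, against 0 in both d4c3 and both d4c7 libraries, and Hba-x and Hbb-bh1 were not called between d4c7 and E12.5 males. The blood and endothelium list summed to 4643 and 4107 RPM at E9.5. Hba-a1 and Hba-a2 are near-identical copies, so the division of reads between them is uncertain. The ERCC spike-in rows, which enter no comparison, summed to 14411 and 16494 RPM in the E12.5 male libraries.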

How the results depend on the processing

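Of 135 named and tested genes 127 were called; 102 of these kept the call with each of the 4 libraries left out, 97 kept it under each of the 16 alternatives, and 0 reversed. Fitting the 4 compared libraries alone gave 2297 called genes, 1249 higher and 1048 lower, and no value for the difference between the pairs, which needs the other groups. With single libraries left out, 2552 to 4331 genes were called, 1474 to 2035 higher and 1070 to 2296 lower, and 959 to 2418 for the difference between the pairs. Depth limits values near the floor of 3 reads.

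The replicate numbers name no shared day or animal in the labels and did not pair d4c7 with E12.5 males (correlation 0.0286), whereas same-numbered libraries of the 3 culture groups deviated together (0.116 between d4c3 and d4c5, 0.131 between d4c3 and d4c7, 0.455 between d4c5 and d4c7). With the replicate number as a block 4141 genes were called over all 12 libraries, 2125 higher and 2016 lower, with 2010 for the difference between the pairs, and 2508 over the 4 libraries, 1336 higher and 1172 lower. With a replicate block over the 6 culture libraries alone, an alternative chosen after seeing the data, 4733 genes were called, 2391 higher and 2342 lower, with 2668 for the difference between the pairs.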
